A study of Mus musculus with 24 samples.

Results

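The genes described here build the machinery that makes ribosomal RNA and assembles it into ribosomes. They comprise subunits and initiation factors of RNA polymerase I and RNA polymerase III, the regulators Maf1 and Myc, and proteins of the nucleolus that modify, cut, and fold ribosomal RNA. The 44 members were chosen by name for these roles, with earlier results of these data in view, so their counts in each comparison are given as a description of the list and not as a test of it. All 44 were found among the 56941 genes of the deposited tables, and all 44 passed the filter on low counts, which left 13315 genes to test. Their mean level in the control ran from 11.4 to 957 CPM (counts scaled to a common library size), with a median of 51.2.

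Ribosome production begins in the nucleolus. Polymerase I, guided by the factor UBF (encoded by Ubtf), the SL1 complex (Taf1a to Taf1d), and RRN3, transcribes the long precursor of the 18S, 5.8S, and 28S ribosomal RNAs. Polymerase III makes 5S ribosomal RNA, transfer RNAs, and other short RNAs with the help of TFIIIB and TFIIIC. Small nucleolar ribonucleoproteins (snoRNPs) then modify the precursor, the small-subunit processome folds and cuts it, and separate factors assemble the large subunit. In muscle, this pathway is known to rise during growth after loading and to be held down when growth signals are low or when myoblasts leave the cell cycle.

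The study asked how daily optical exercise at different frequencies changes engineered skeletal muscle. C2C12 myoblasts, an established mouse line carrying the light-gated channel ChR2 fused to tdTomato (genotype ChR2::tdTomato in all libraries), were grown on patterned gels, differentiated with horse serum and IGF-1, and either left unstimulated (control) or stimulated with blue light for 60 min per day at 1, 4, or 10 Hz. Each of the 4 conditions had 6 libraries, described as biological replicates of 1 engineered line, so p-values measure the spread between these libraries. Depth ran from 8052369 to 18159144 estimated counts per library. The biological coefficient of variation, the spread between libraries of a condition beyond counting noise, was estimated at 14.8%. All 10 myotube markers examined, Acta1 and Myog among them, exceeded 1 TPM (a level normalized for transcript length) in each condition. By these markers the libraries were from differentiated cultures, although the label gives the cell type as myoblast. Some non-muscle markers also exceeded 1 TPM in each condition. They were 4 of 5 fibroblast, 2 of 4 neuron and glia, 1 of 4 leukocyte, and 1 of 5 adipocyte markers. Of 4 endothelial markers, 0 did. Control means were 142 TPM for Dcn (fibroblast), 84.6 for Cd68 (leukocyte), 68.8 for Tubb3 (neuron and glia), and 17.1 for Lpl (adipocyte). Tubb3 had means of 34.6 TPM with 1 Hz stimulation, 31.7 with 4 Hz, and 79.8 with 10 Hz. The regulator Myog was itself lower, with 519 to 698 TPM in the controls, 189 to 272 at 1 Hz, 141 to 214 at 4 Hz, and 514 to 602 at 10 Hz, while Acta1 ranged from 6600 to 8510 TPM in the controls and overlapped that range at each frequency. Markers of undifferentiated myoblasts summed to between 299 and 330 TPM in the controls, between 105 and 197 TPM at 1 Hz, between 99.7 and 163 TPM at 4 Hz, and between 254 and 299 TPM at 10 Hz. Most of that sum was Myod1 (mean 193 TPM in the controls and 63.5 at 1 Hz) and Cdh15 (69.9 and 29). Myf5 went the other way, from 8.76 to 11.8 TPM in the controls to between 18.6 and 27.8 at 1 Hz and between 14.4 and 21.3 at 4 Hz, and Vcam1 and Id3 overlapped the controls. Markers of proliferation, mostly Pcna by level, summed to between 137 and 174 TPM in the controls, 121 and 152 at 1 Hz, 93.7 and 129 at 4 Hz, and 142 and 165 at 10 Hz, so that the 4 Hz libraries alone did not overlap the controls. Within that list Cdk1 had means of 16.5 TPM in the controls, 20.4 at 1 Hz, and 19.2 at 4 Hz. In bulk RNA, fewer cells of a type and less RNA per cell cannot be told apart, and the part of these markers in the results below was not tested.

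At 1 Hz, 28 of the 44 members were lower than in the control, 5 were higher, and 11 did not pass the test (edgeR quasi-likelihood test, Benjamini-Hochberg adjusted p under 0.05 over all genes tested). Of all genes tested, 18.1% were lower and 19.2% higher. The median log2(fold change) of the members was -0.37, against 0.04 for all genes. With an absolute log2(fold change) over 0.5 asked for as well, 16 members were lower, against 7.74% of all genes. In 19 members, all 6 libraries at 1 Hz lay below all 6 controls (8.58% of all genes), and in 2 members they all lay above (5.55%). The count of 5 higher members fell to 2 without 1 Hz replicate 4.

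At 4 Hz, 30 members were lower, 6 were higher, and 8 did not pass the test, against 23.9% of all genes lower and 27.5% higher. The median log2(fold change) was -0.47 for the members and 0.06 for all genes. Past the fold threshold, 20 members were lower (12.3% of all genes) and 1 member, Myc, was higher (share of all genes not given here). All 6 libraries at 4 Hz lay below all 6 controls in 27 members (14.7% of all genes) and above them in 4 (12.9%). The comparisons at 1 and 4 Hz share their controls.

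At 10 Hz, 0 members were called by edgeR, and 0.0376% of all genes were. DESeq2 also called 0, the smallest adjusted p of a member was 0.46, and 1 member had an unadjusted p under 0.05, against 8.07% of all genes. The median log2(fold change) of the members was -0.04. No member had all 6 libraries at 10 Hz below the controls (0.864% of all genes), and 1 member, Polr3d, had all 6 above them (0.774%).

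**Figure D1:**
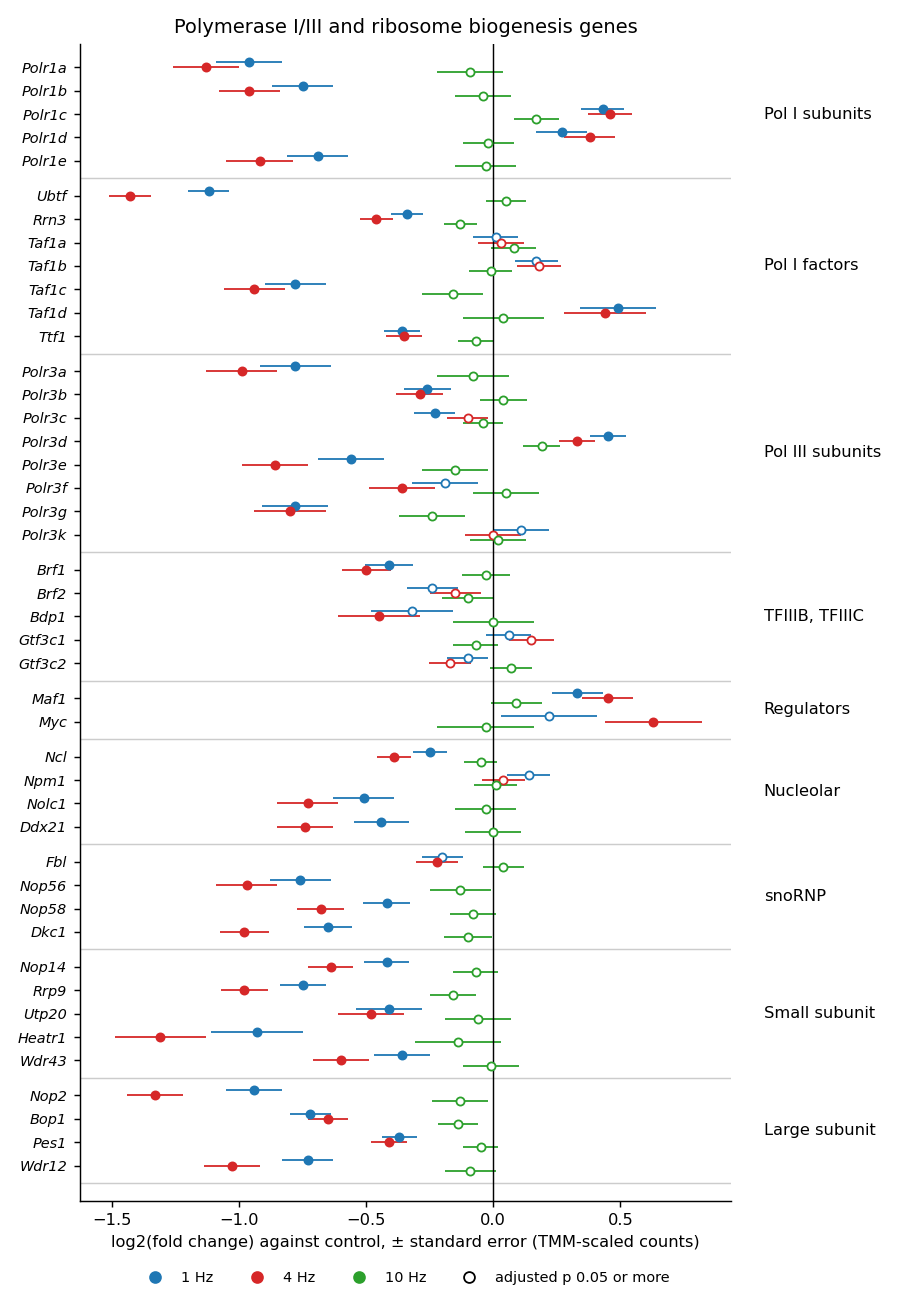
Log2(fold change) against the control of each of the 44 members, grouped by role, with its standard error, at 1 Hz (blue), 4 Hz (red), and 10 Hz (green), from the fit of 24 libraries. Filled points passed an adjusted p of 0.05. Most blue and red points lie left of 0, to -1.43 for Ubtf at 4 Hz, while the green points lie near 0 and are all open.

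**Figure D2:**
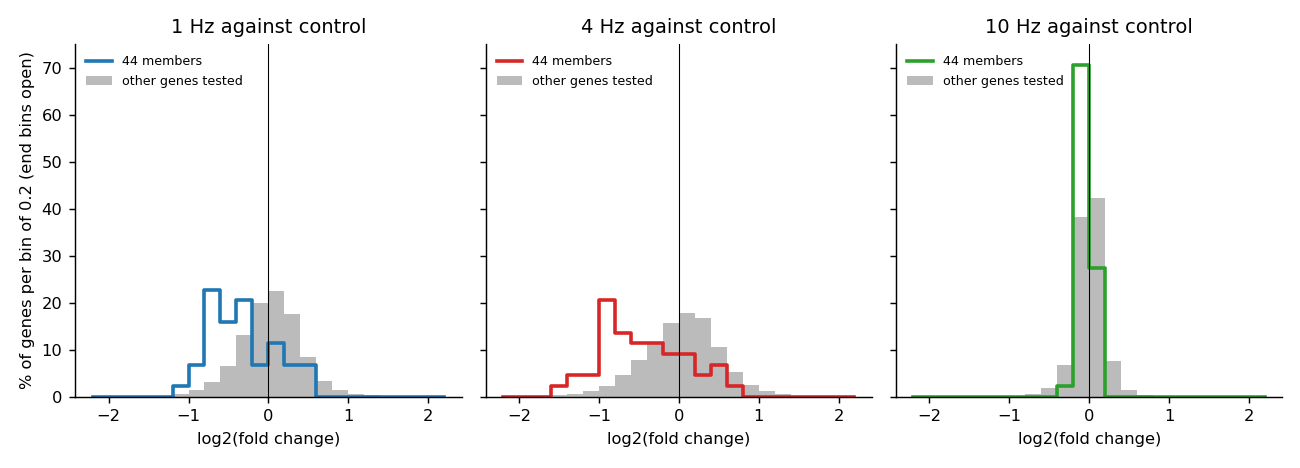
Share of genes (vertical axis, percent) in each bin of log2(fold change) against the control (horizontal axis) for the 44 members (colored outline) and the other genes tested (gray bars), at 1, 4, and 10 Hz. At 1 and 4 Hz the members' medians were -0.37 and -0.47, left of the peak of the gray bars near 0, and at 10 Hz the median was -0.04.

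The start regions of these genes are shown because many members moved together. RefSeq windows (assembly GRCm38.p6) from 250 bases before to 50 bases after the start site were given for 35 of the 44 members, all but Polr3a, Polr3d, Brf1, Brf2, Maf1, Myc, Npm1, Fbl, and Bop1. The canonical E-box CACGTG, the sequence to which MYC binds with MAX, was found in the windows of 7 of these 35 (20% of them, against 8.09% of all 27025 genes with a window and 11.9% of the 9891 such genes tested here). They were Rrn3, Polr3c, Polr3e, Utp20, Wdr43, Nop2, and Pes1. The ETS-type sequence CCGGAAG, on either strand, was found in 15 of 35 (42.9%, against 9.93% of all genes and 20.1% of those tested). TGCGCATGC was found in 1 member, Taf1a, and TCTCGCGAG and AAGATGGCG in 0. At 4 Hz, the ETS-type sequence was present in 10 of 26 members with a window that were lower, in 1 of 3 that were higher, and in 4 of 6 that were not called. The E-box was present in 6, 0, and 1 of the same groups. Windows of Rrn3 and Nop2, the members that hold both sequences, and of Polr1c, a member that was higher, are printed 5′ to 3′ on the strand of the gene. Rrn3 is at chr16:13780449-13780748 (plus strand), Nop2 at chr6:125131633-125131932 (plus strand), and Polr1c at chr17:46247996-46248295 (minus strand). Capitals mark CACGTG and CCGGAAG or its reverse complement CTTCCGG.
Rrn3: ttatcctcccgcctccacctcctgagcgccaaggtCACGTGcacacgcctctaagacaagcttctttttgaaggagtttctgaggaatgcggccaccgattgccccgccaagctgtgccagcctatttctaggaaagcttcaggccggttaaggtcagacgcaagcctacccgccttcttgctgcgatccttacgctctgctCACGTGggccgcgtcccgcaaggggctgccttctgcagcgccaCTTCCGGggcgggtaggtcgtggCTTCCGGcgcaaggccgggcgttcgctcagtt
Nop2: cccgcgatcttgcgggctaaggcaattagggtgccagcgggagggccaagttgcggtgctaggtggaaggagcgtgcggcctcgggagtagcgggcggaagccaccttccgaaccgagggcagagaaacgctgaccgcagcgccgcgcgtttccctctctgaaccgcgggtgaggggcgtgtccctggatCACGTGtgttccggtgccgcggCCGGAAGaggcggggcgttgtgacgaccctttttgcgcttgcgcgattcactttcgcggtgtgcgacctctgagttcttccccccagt
Polr1c: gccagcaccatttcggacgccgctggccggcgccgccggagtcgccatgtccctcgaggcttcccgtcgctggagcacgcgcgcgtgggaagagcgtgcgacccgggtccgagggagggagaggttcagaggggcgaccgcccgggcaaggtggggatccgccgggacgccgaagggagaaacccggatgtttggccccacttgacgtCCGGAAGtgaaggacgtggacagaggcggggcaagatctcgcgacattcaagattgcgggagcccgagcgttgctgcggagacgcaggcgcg
The E-boxes of Rrn3 begin at -215 and -48 and that of Nop2 at -60, counted from the start site at 1. The ETS-type sequence of Polr1c begins at -42 and that of Nop2 at -38. A match is a description of the letters, and whether a factor binds there was not measured.

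In the counts by role that follow, lower members are to be read against 18.1% (1 Hz) and 23.9% (4 Hz) of all genes. Higher members are to be read against 19.2% and 27.5%. Among the 5 members that are subunits of polymerase I, 3 were lower and 2 were higher at both 1 and 4 Hz. Polr1a and Polr1b encode the large subunits that form the catalytic center. Polr1a had 57.8 to 79.1 CPM (median 66.2) in the controls, 27.9 to 44.2 (31.8) at 1 Hz, 25.6 to 36.3 (30.2) at 4 Hz, and 44.6 to 81.2 (64.7) at 10 Hz. No library at 1 or 4 Hz reached the lowest control, and the 10 Hz libraries spanned the range of the controls. The log2(fold change) of Polr1a was -0.96 ± 0.13 (SE) (adjusted p = 3.8e-06) at 1 Hz, -1.13 ± 0.13 (adjusted p = 2.2e-07) at 4 Hz, and -0.09 ± 0.13 (adjusted p = 0.94) at 10 Hz. Polr1b fell to -0.75 ± 0.12 at 1 Hz and -0.96 ± 0.12 at 4 Hz. Polr1e, whose product joins the polymerase to its initiation factors, gave -0.69 ± 0.12 and -0.92 ± 0.13.

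Polr1c and Polr1d encode subunits that polymerases I and III share, and both were higher. Polr1c had 46.6 to 53.6 CPM (median 50) in the controls, 57.8 to 81.6 (63.5) at 1 Hz, 56.7 to 81.9 (69.1) at 4 Hz, and 52 to 61.2 (56.8) at 10 Hz. Each library at 1 and 4 Hz lay above the highest control. Its log2(fold change) was 0.43 ± 0.086 (adjusted p = 0.00038) at 1 Hz and 0.46 ± 0.087 (adjusted p = 0.00011) at 4 Hz. On log2(TPM + 1) it was not called (0.09 and 0.12), and with a length curve removed it was 0.26 and 0.19, still called. Polr1d had 86.8 to 99 CPM (median 90.5) in the controls, 84.9 to 140 (104) at 1 Hz, 99 to 139 (116) at 4 Hz, and 83.6 to 98.8 (89.2) at 10 Hz. The 1 Hz libraries overlapped the controls, and before rounding the 4 Hz libraries all lay above them. Its log2(fold change) was 0.27 ± 0.1 (adjusted p = 0.036) at 1 Hz and 0.38 ± 0.1 (adjusted p = 0.0029) at 4 Hz. Its 1 Hz call was lost in 12 of the 24 fits that left out 1 library, down to 0.16 without 1 Hz replicate 6. That call was also lost with a length curve removed (0.12), without the 5 libraries low in long transcripts described below (0.07), and on log2(TPM + 1) (0.03, and 0.04 at 4 Hz).

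Ubtf, which encodes the architectural protein UBF that keeps ribosomal DNA open for polymerase I, had the lowest p of all members. It had 176 to 202 CPM (median 186) in the controls, 73.5 to 101 (86.3) at 1 Hz, 60.3 to 82.2 (66.3) at 4 Hz, and 173 to 223 (188) at 10 Hz. The 1 and 4 Hz libraries lay far below the controls, with no overlap, and the 10 Hz libraries covered the control range. The log2(fold change) was -1.12 ± 0.08 (adjusted p = 1.3e-10) at 1 Hz, -1.43 ± 0.081 (adjusted p = 1.1e-12) at 4 Hz, and 0.05 ± 0.078 (adjusted p = 0.95) at 10 Hz. On the linear scale the estimated level at 4 Hz was 62.9% lower (-62.9%). Ubtf has no annotated gene on the opposite strand, at chr11:102195386-102210568 (GRCm39, minus strand).

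Of the other polymerase I factors, Taf1c of the SL1 complex gave -0.78 ± 0.12 at 1 Hz and -0.94 ± 0.12 at 4 Hz. Taf1a and Taf1b were not called. Taf1a gave 0.01 ± 0.089 and 0.03 ± 0.089 and Taf1b 0.17 ± 0.084 and 0.18 ± 0.085. Taf1d, also of SL1, was higher, at 0.49 ± 0.15 (adjusted p = 0.016) and 0.44 ± 0.16 (adjusted p = 0.021), with 39.2 to 49.9 CPM in the controls and 39.1 to 77 CPM at 1 Hz. Its call was lost at 1 Hz without 1 Hz replicate 4 (0.40) or 6 (0.39), and at 4 Hz without 4 Hz replicate 3 (0.27), control replicate 4 (0.39), or control replicate 5 (0.39). Both calls were also lost with a length curve removed (0.30 and 0.18), without the 5 libraries low in long transcripts (0.31 and 0.32), without a filter (0.46 and 0.40), and on log2(TPM + 1) (0.28 and 0.14). Rrn3, which brings polymerase I to the promoter, was lower at -0.34 ± 0.064 and -0.46 ± 0.064, and Ttf1, which ends transcription, at -0.36 ± 0.071 and -0.35 ± 0.071.

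Of the 8 polymerase III subunits, 5 were lower and 1 was higher at 1 Hz and again at 4 Hz. Polr3a, which encodes the largest catalytic subunit, gave -0.78 ± 0.14 (adjusted p = 0.0001) at 1 Hz, -0.99 ± 0.14 (adjusted p = 3.8e-06) at 4 Hz, and -0.08 ± 0.14 (adjusted p = 0.95) at 10 Hz. Polr3e was lower at -0.56 ± 0.13 and -0.86 ± 0.13. The second-largest subunit, Polr3b, was lower at -0.26 ± 0.093 and -0.29 ± 0.094. Polr3c was called lower at 1 Hz (-0.23 ± 0.081) and not at 4 Hz (-0.10 ± 0.081), and Polr3f at 4 Hz (-0.36 ± 0.13) and not at 1 Hz (-0.19 ± 0.13). Polr3k was not called in either. With a length curve removed, Polr3b was -0.16 at 1 Hz and -0.15 at 4 Hz, and Polr3f was -0.26 at 4 Hz. Without the 5 libraries low in long transcripts, these values were -0.17, -0.23, and -0.15. On log2(TPM + 1) they were further below 0 than in the main fit, at -0.41, -0.54, and -0.67.

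Polr3d, a subunit that helps the polymerase end and restart transcription, was higher. It had 48.3 to 54.2 CPM (median 51.7) in the controls, 59 to 77.2 (71.8) at 1 Hz, 58.1 to 72.5 (63.1) at 4 Hz, and 54.5 to 64.1 (58.2) at 10 Hz. All 18 stimulated libraries, those at 10 Hz included, lay above the highest control. The log2(fold change) was 0.45 ± 0.071 (adjusted p = 2.9e-05) at 1 Hz, 0.33 ± 0.072 (adjusted p = 0.00052) at 4 Hz, and 0.19 ± 0.072 (adjusted p = 0.46) at 10 Hz. On log2(TPM + 1) it was not called at 1 Hz (0.26, adjusted p = 0.13) or 4 Hz (0.03), and with a length curve removed it was 0.43 and 0.30, both called.

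Polr3g and Polr3gl are paralogs that take the same place in polymerase III. Polr3g is known to be high in stem and proliferating cells and Polr3gl in differentiated ones. Polr3g had 10.6 to 13.6 CPM (median 10.9) in the controls, 5.37 to 9.12 (6.32) at 1 Hz, 5.02 to 7.37 (6.72) at 4 Hz, and 6.87 to 11.3 (10) at 10 Hz. The groups at 1 and 4 Hz did not overlap the controls. Its log2(fold change) was -0.78 ± 0.13 (adjusted p = 7.3e-05) at 1 Hz, -0.80 ± 0.14 (adjusted p = 3.1e-05) at 4 Hz, and -0.24 ± 0.13 (adjusted p = 0.67) at 10 Hz. Polr3gl rose by 0.39 ± 0.15 (adjusted p = 0.04) at 1 Hz and 0.43 ± 0.15 (adjusted p = 0.019) at 4 Hz. On log2(TPM + 1) neither was called (0.25 and 0.33), and the 1 Hz call was lost in 10 of the 24 fits that left out 1 library. Both calls were also lost with a length curve removed (0.18 and 0.16) and without the 5 libraries low in long transcripts (0.13 and 0.30). On the length-normalized scale, Polr3g had 6.45 ± 0.694 TPM (SD, n = 6) in the controls and 3.42 ± 0.607 TPM at 4 Hz, and Polr3gl had means of 18.7 TPM and 24.2 TPM (ranges 15 to 22.6 and 15.1 to 33.4). In TPM, Polr3gl was thus the higher of the paralogs in the control already.

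Of the 5 factors of polymerase III, 1 was lower at 1 Hz and 2 were lower at 4 Hz, close at 1 Hz to the 18.1% of all genes. Brf1 of TFIIIB gave -0.41 ± 0.095 at 1 Hz and -0.50 ± 0.096 at 4 Hz. Bdp1, also of TFIIIB, was called lower at 4 Hz only, with -0.45 ± 0.16 against -0.32 ± 0.16 at 1 Hz. Its 4 Hz value was -0.28 with a length curve removed and -0.55 on log2(TPM + 1). Brf2, which serves promoters like that of U6 RNA, and the TFIIIC subunits Gtf3c1 and Gtf3c2 were not called, with log2(fold change) between -0.24 and 0.15 over both comparisons.

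Maf1, the repressor that binds polymerase III when nutrients or growth signals are low, was higher. It had 60 to 75.2 CPM (median 63.5) in the controls, 69.9 to 104 (77.5) at 1 Hz, 79.7 to 107 (83.6) at 4 Hz, and 58.2 to 82 (66.9) at 10 Hz. The 4 Hz libraries all lay above the controls, and the 1 Hz libraries overlapped them. Its log2(fold change) was 0.33 ± 0.1 (adjusted p = 0.014) at 1 Hz, 0.45 ± 0.1 (adjusted p = 0.00093) at 4 Hz, and 0.09 ± 0.1 (adjusted p = 0.91) at 10 Hz. Its 1 Hz call did not hold without 1 Hz replicate 4 (0.22, adjusted p = 0.077) or without the 5 libraries low in long transcripts (0.18), and on log2(TPM + 1) it was called at neither frequency (0.11 at both).

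Myc, the transcription factor known for raising polymerase I, polymerase III, and nucleolar genes, went against most of the list. It had 53.2 to 67.2 CPM (median 62.9) in the controls, 30.8 to 96.3 (81.1) at 1 Hz, 62 to 113 (102) at 4 Hz, and 51.3 to 73.7 (60.3) at 10 Hz. At 1 Hz, 4 libraries lay above all controls and 1 below all of them, and at 4 Hz, 5 lay above. The log2(fold change) was 0.22 ± 0.19 at 1 Hz (adjusted p = 0.37, and -0.01 when TPM was the unit), 0.63 ± 0.19 (adjusted p = 0.0073) at 4 Hz, and -0.03 ± 0.19 (adjusted p = 0.99) at 10 Hz. The 4 Hz call did not hold when TPM was the unit (0.37, adjusted p = 0.11) and without the 5 libraries low in long transcripts (0.49, adjusted p = 0.12). Without 1 Hz replicate 5, the lowest library, Myc at 1 Hz was called higher (0.37, adjusted p = 0.029).

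**Figure D3:**
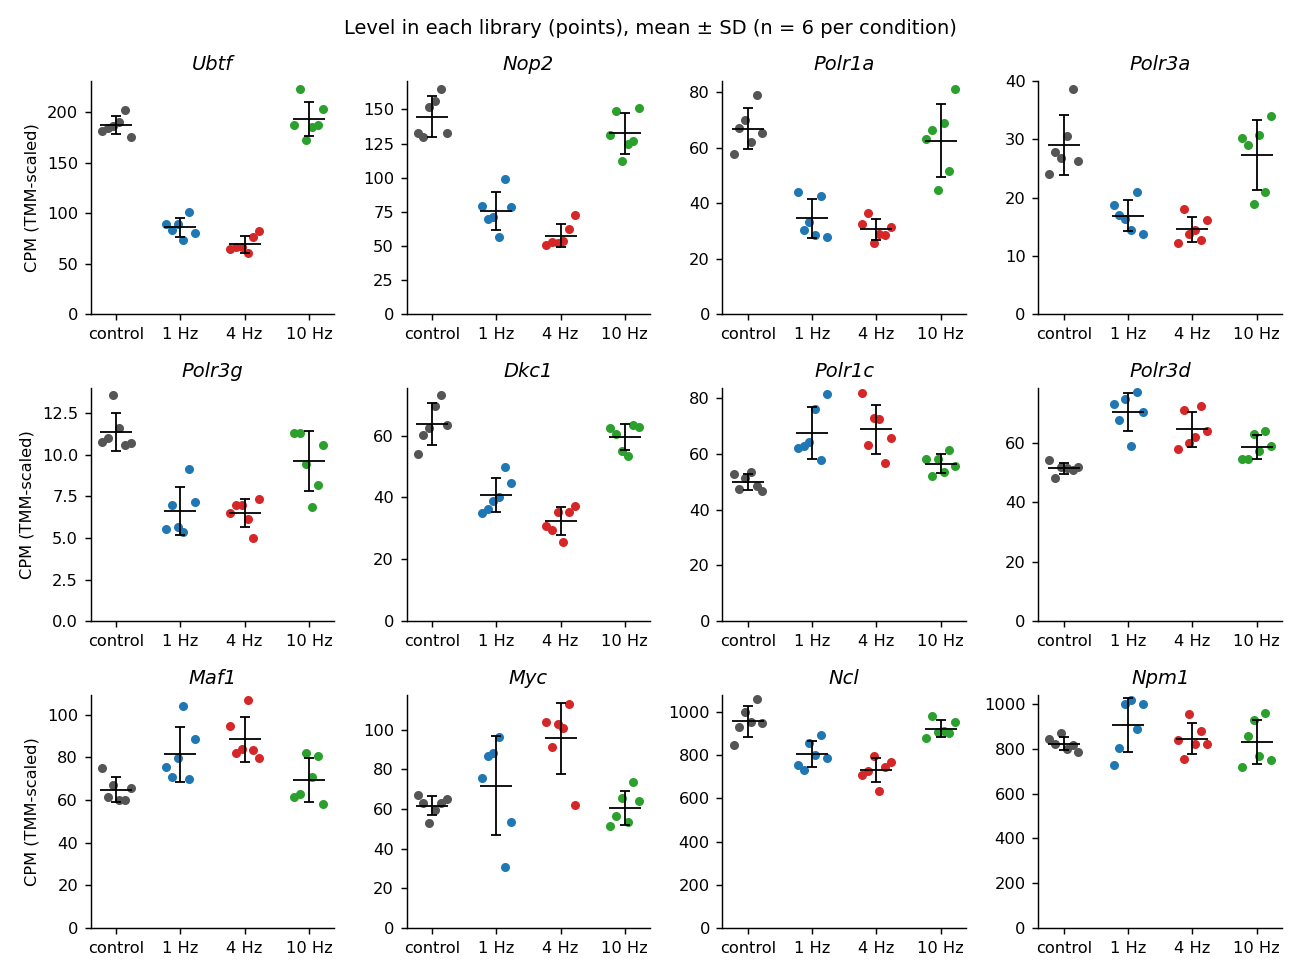
Level (CPM after TMM scaling, axes from 0) of 12 members in each of the 24 libraries, with the mean and SD of each condition (n = 6). Ubtf, Nop2, Polr1a, Polr3a, Polr3g, and Dkc1 at 1 and 4 Hz lie below the controls without overlap, Polr1c and Polr3d lie above them, Myc spreads from 30.8 to 96.3 CPM at 1 Hz, and Npm1 overlaps in all conditions.

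Of 4 general nucleolar proteins, 3 were lower at both frequencies. Ncl encodes nucleolin, among the most abundant nucleolar proteins, and gave -0.25 ± 0.066 (adjusted p = 0.0046) at 1 Hz, -0.39 ± 0.066 (adjusted p = 3.6e-05) at 4 Hz, and -0.05 ± 0.066 (adjusted p = 0.93) at 10 Hz. Nolc1, a chaperone of snoRNPs, gave -0.51 ± 0.12 and -0.73 ± 0.12. Ddx21, an RNA helicase, gave -0.44 ± 0.11 and -0.74 ± 0.11. Npm1, which encodes nucleophosmin, was not called, with 787 to 869 CPM in the controls, 728 to 1020 at 1 Hz, and 756 to 958 at 4 Hz.

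The snoRNP proteins were lower in 3 of 4 at 1 Hz and in 4 of 4 at 4 Hz. Dkc1 encodes the pseudouridine synthase of H/ACA snoRNPs. It had 54.2 to 73.1 CPM (median 63) in the controls, 35 to 49.7 (39.4) at 1 Hz, 25.6 to 37.4 (33) at 4 Hz, and 53.4 to 63.4 (61.5) at 10 Hz. The 1 and 4 Hz libraries did not overlap the controls, and its log2(fold change) was -0.65 ± 0.095 (adjusted p = 1.1e-05) and -0.98 ± 0.096 (adjusted p = 1.8e-08). Among box C/D proteins, Nop56 gave -0.76 ± 0.12 and -0.97 ± 0.12, and Nop58 gave -0.42 ± 0.091 and -0.68 ± 0.091. Fbl, the methyltransferase of the same particles, gave -0.20 ± 0.082 (adjusted p = 0.058) at 1 Hz, -0.22 ± 0.083 (adjusted p = 0.027) at 4 Hz, and 0.04 ± 0.082 (adjusted p = 0.97) at 10 Hz. Its call at 4 Hz was lost without control replicate 5 (-0.19) or 4 Hz replicate 2 (-0.20).

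All 5 members that act on the small subunit were lower at 1 and at 4 Hz. Rrp9, a protein of the U3 snoRNP, had 36 to 45.9 CPM (median 42.3) in the controls, 22.4 to 27.4 (24.1) at 1 Hz, 18 to 24.9 (20) at 4 Hz, and 30.2 to 41.7 (38) at 10 Hz. Again the 1 and 4 Hz libraries did not overlap the controls, and the log2(fold change) was -0.75 ± 0.091 (adjusted p = 9.1e-07) and -0.98 ± 0.093 (adjusted p = 1e-08). Heatr1, which also takes part in polymerase I transcription, gave -0.93 ± 0.18 and -1.31 ± 0.18. Nop14, Utp20, and Wdr43 lay between -0.36 and -0.42 at 1 Hz and between -0.48 and -0.64 at 4 Hz.

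All 4 members that build the large subunit were lower as well. Nop2, the methyltransferase of the 28S ribosomal RNA whose start region is printed above, had 130 to 165 CPM (median 143) in the controls, 56.7 to 99.1 (74.8) at 1 Hz, 51.1 to 72.8 (53.2) at 4 Hz, and 112 to 151 (129) at 10 Hz. Its log2(fold change) was -0.94 ± 0.11 (adjusted p = 5e-07) at 1 Hz and -1.33 ± 0.11 (adjusted p = 1.2e-09) at 4 Hz, with no overlap with the controls. Pes1, Bop1, and Wdr12 form the PeBoW complex that processes the precursor of 28S ribosomal RNA, and all 3 were lower. Pes1 gave -0.37 ± 0.069 at 1 Hz and -0.41 ± 0.07 at 4 Hz. Bop1 gave -0.72 ± 0.08 and -0.65 ± 0.08. Wdr12 gave -0.73 ± 0.1 and -1.03 ± 0.11.

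The frequencies were next compared with each other. Between 4 and 1 Hz, edgeR called 0 members and 0% of all genes, DESeq2 called 1 member, and 13 members had an unadjusted p under 0.05 (11% of all genes). In 33 members the fitted level was lower at 4 than at 1 Hz, with a median difference of -0.12 on the log2 scale. Of all genes 48.5% were lower, with a median of 0.01. Ubtf, for example, was lower by a log2 value of -0.31 (adjusted p = 0.26), a difference that did not pass the test. Against 1 Hz, 28 members were higher and 4 lower at 10 Hz (14.8% and 13.1% of all genes). Against 4 Hz, 31 were higher and 6 lower at 10 Hz (21.9% and 24.4% of all genes). Ubtf was higher at 10 Hz by 1.17 ± 0.08 against 1 Hz (adjusted p = 1.2e-10) and by 1.48 ± 0.081 against 4 Hz (adjusted p = 1.5e-12). Nop2 was higher by 0.81 ± 0.11 and 1.20 ± 0.11, Bop1 by 0.59 ± 0.081 against 1 Hz, and Dkc1 by 0.88 ± 0.097 against 4 Hz. In the other direction, Polr3d (-0.26 ± 0.072), Polr1c (-0.26 ± 0.087), and Taf1d (-0.44 ± 0.16) were lower at 10 than at 1 Hz, and Polr1c turned to 0.05 when TPM was the unit. The calls of Polr1c and Taf1d were lost in 5 and 7 of the fits that left out 1 library. Polr1d (-0.40 ± 0.1), Myc (-0.65 ± 0.19), and Maf1 (-0.35 ± 0.1) were lower at 10 than at 4 Hz. In TPM (mean ± SD) the groups lay closer for Polr1d, with 144 ± 9.17 at 4 Hz and 136 ± 5.15 at 10 Hz. The same held for Maf1, with 73.9 ± 9.96 and 70.5 ± 6.14, while Myc had 65.6 ± 15 and 49 ± 5.59.

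Other genes of the pathway, 172 in all, were listed by role, of which 169 were in the tables and 167 were tested. Of these, 90 were lower and 9 higher at 1 Hz, 110 were lower and 18 higher at 4 Hz, and 0 were called at 10 Hz. For each list below, the counts of lower genes are to be read against 18.1% (1 Hz) and 23.9% (4 Hz) of all genes, and those of higher genes against 19.2% and 27.5%. The median over them was -0.25, -0.37, and -0.03, against 0.04, 0.06, and 0.01 for all genes. Among 48 other small-subunit factors, 33 were lower at 1 Hz and 38 at 4 Hz. Nol10 (-0.91 ± 0.099 and -1.16 ± 0.1) and Ddx10, a helicase (-1.03 ± 0.095 at 4 Hz), were lower, and Imp3, of the U3 snoRNP, was the 1 that was higher (0.46 ± 0.092 and 0.51 ± 0.092). Of 57 other large-subunit factors, 35 and 45 were lower, such as Ftsj3, a methyltransferase (-0.66 ± 0.077 and -0.87 ± 0.077), and Las1l, part of the complex that removes a spacer (-0.52 ± 0.07 and -0.67 ± 0.07). Nsa2 (0.30 ± 0.094 and 0.35 ± 0.094) was higher, as was Surf6 (0.26 ± 0.089 and 0.32 ± 0.09), which turned to -0.07 and -0.18 when TPM was the unit.

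Of 21 enzymes tested that cut or trim ribosomal RNA, 10 were lower and 1 higher at 1 Hz, and 11 were lower and 4 higher at 4 Hz. Mtrex, the helicase of the nuclear exosome, gave -0.77 ± 0.082 and -0.85 ± 0.082, and Pop1, the largest protein of RNases P and MRP, gave -1.65 ± 0.2 at 4 Hz. Rpp21, another RNase P protein, was higher (0.38 ± 0.15 and 0.68 ± 0.15), and its 1 Hz call was lost in 16 of the 24 fits that left out 1 library. Of 11 other snoRNP genes, 5 were lower at each frequency, led by the assembly factors Shq1 (-0.84 ± 0.14 and -1.14 ± 0.15) and Ruvbl1 (-0.49 ± 0.082 and -0.60 ± 0.083), and 1 and 3 were higher, Nop10 at 4 Hz among them (0.47 ± 0.12).

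Other polymerase genes were called in both directions. Of 10 other polymerase I genes, 4 were lower at 1 Hz and 5 at 4 Hz, among them Polr1g (-0.31 ± 0.079 and -0.64 ± 0.081) and Mybbp1a (-0.50 ± 0.078 and -0.60 ± 0.079), and Nop53 was higher (0.39 ± 0.088 and 0.49 ± 0.088). The 5 small subunits common to all 3 polymerases were called in 0 cases at 1 Hz and were higher in 4 at 4 Hz, with Polr2e at 0.44 ± 0.11 and Polr2l at 0.37 ± 0.12, and neither of these was called in TPM. Of 15 other polymerase III genes, 3 and 6 were lower, such as Gtf3c3 of TFIIIC (-0.28 ± 0.086 and -0.48 ± 0.087) and Snapc4 (-0.58 ± 0.11 and -0.53 ± 0.11), and 2 were higher at each frequency, Snapc2 among them (0.37 ± 0.086 and 0.45 ± 0.086). In the MYC network, 4 of 14 genes were higher at each frequency, near the 27.5% of all genes at 4 Hz, and 2 and 5 were lower. The higher ones included Mxi1 (0.43 ± 0.071 and 0.50 ± 0.071) and Mxd1 (1.00 ± 0.15 at 4 Hz), which compete with MYC for its partner MAX. The MYC targets Cad (-0.36 ± 0.11 and -0.52 ± 0.12) and Eif4a1 (-0.14 ± 0.056 and -0.34 ± 0.056) were lower, and the 1 Hz call of Eif4a1 was lost in 13 of those fits.

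**Figure D4:**
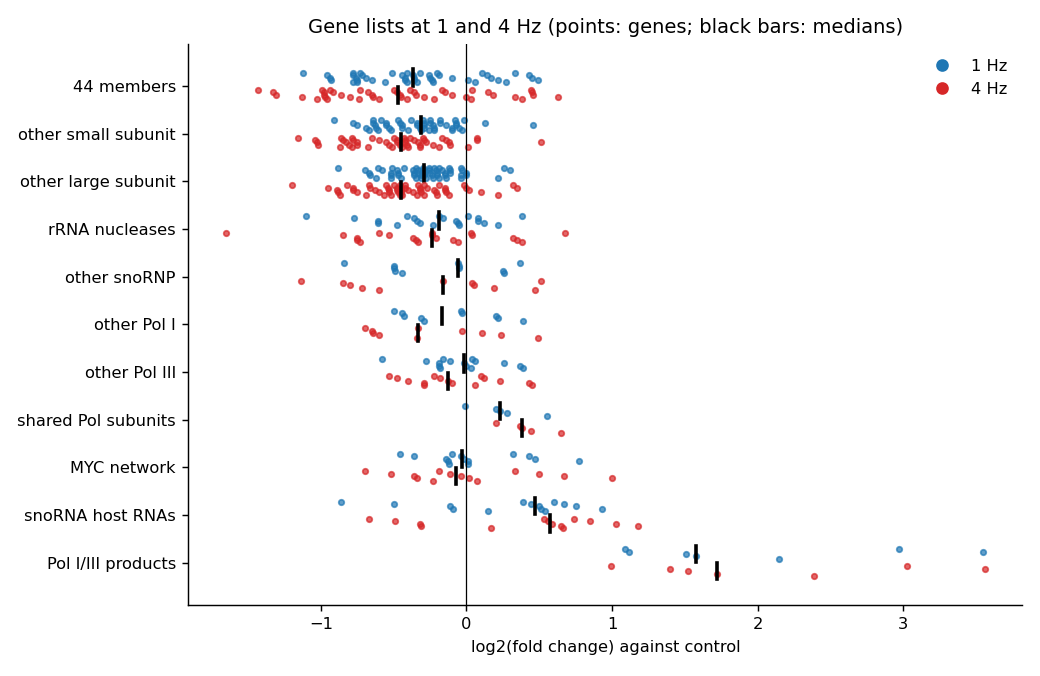
Log2(fold change) against the control at 1 Hz (blue) and 4 Hz (red) of each gene (points) in the 44 members and in the other lists of the pathway, with the median of each list as a black bar. Medians of the other small- and large-subunit lists were -0.32 and -0.29 at 1 Hz and -0.45 for both at 4 Hz, while the products of polymerases I and III had medians of 1.58 and 1.72. The list of products holds only RNAs that passed the filter on low counts, in part through the stimulated libraries.

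The study's methods name poly(A) selection and the sample labels name ribodepletion for low-input samples, without saying which these were, so levels of the RNAs that polymerases I and III make are not a measure of synthesis. Of 7 that could be tested, 6 were higher at 1 Hz and 6 at 4 Hz, with a median log2(fold change) of 1.58 and 1.72. Rn18s-rs5, a copy of 18S ribosomal RNA that may share reads with other copies, gave 1.51 ± 0.46 at 1 Hz, and Rmrp, the RNA of RNase MRP, gave 3.55 ± 0.76 with a mean of 0.176 CPM in the controls. The filter on low counts takes counts from libraries of any condition, so an RNA this low in the controls passed through the stimulated libraries. The number of higher RNAs and the medians of this list are thus in part set by the filter. Mitochondrial ribosomal RNA summed to between 1360 and 2590 TPM in the controls, 1880 and 5450 TPM at 1 Hz, and 839 and 8970 TPM at 4 Hz. Host genes of small nucleolar RNAs, whose spliced RNAs are short, were higher in 6 of 14 at 1 Hz and in 9 of 14 at 4 Hz, such as Snhg17 (0.60 ± 0.11 and 0.65 ± 0.12) and Gas5 at 1 Hz (0.50 ± 0.14). Of the same list 1 was lower at each frequency, Snhg4 (-0.86 ± 0.27 and -0.67 ± 0.27, identifier ENSMUSG00000117694), whose 4 Hz call was lost in 7 of the fits that left out 1 library. That identifier is annotated as protein-coding, while another entry of the same name, ENSMUSG00000117869, is annotated as a long noncoding RNA. The part of the library method in these values was not tested.

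Transcript length moved with the conditions. The slope of each library's log2 CPM deviation on log2 effective length over all genes lay between -0.00145 and 0.0925 in the controls, -0.202 and 0.0933 at 1 Hz, -0.185 and 0.0178 at 4 Hz, and -0.035 and 0.129 at 10 Hz. When all genes were split into 4 equal bins by length, the median log2(fold change) of the shortest bin was 0.23 at 1 Hz and 0.34 at 4 Hz, and that of the longest was -0.10 and -0.13. From the shortest bin to the longest, the members had medians at 4 Hz of -0.19 (10 members), 0.03 (9), -0.77 (12), and -0.45 (13) against 0.34, 0.08, -0.04, and -0.13 for all genes. The members called higher at 1 and 4 Hz all lay in the 2 shorter bins. Across the 44 members, Spearman's rho between length and log2(fold change) was -0.343 at 1 Hz and -0.332 at 4 Hz, where the points share libraries and no test was made.

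**Figure D5:**
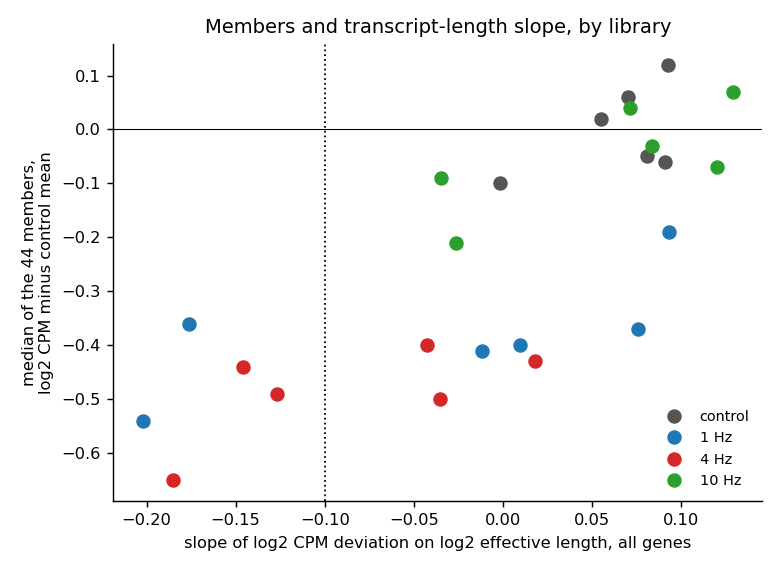
Median over the 44 members of log2 CPM minus the control mean (vertical axis) against the slope of log2 CPM deviation on log2 effective length over all genes (horizontal axis), for each of the 24 libraries. The 5 libraries left of the dotted line at -0.1 are all from 1 or 4 Hz. The other 1 and 4 Hz libraries also lie below the controls, at -0.19 or lower against -0.10 or higher. Replicate 3 of 10 Hz lies in the same range, at -0.21.

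The counts were taken again with length or single libraries removed. With a length curve removed from each library, 29 were lower and 4 higher at 1 Hz and 30 and 6 at 4 Hz, with medians of -0.33 and -0.39. A further fit left out the 5 libraries with a slope under -0.1 (1 Hz replicates 4 and 6 and 4 Hz replicates 1, 3, and 4). There 28 members were lower and 2 higher at 1 Hz (16.4% and 15.8% of all genes), with a median of -0.33. At 4 Hz, 29 were lower and 4 higher (19.9% and 16.9%), with a median of -0.47. On log2(TPM + 1), 30 were lower and 0 higher at 1 Hz (21.9% and 3.58% of all genes). At 4 Hz, 35 were lower and 0 higher (35.9% and 5.83%). There the median of all genes itself was at -0.14 and -0.21, and ribosomal protein genes took 133000 to 152000 TPM in the controls and 156000 to 204000 TPM at 4 Hz. With each library shifted to 1 common median in TPM, 24 members were lower and 4 higher at 1 Hz (12.7% and 16.8% of all genes). At 4 Hz, 28 were lower and 7 higher (18.8% and 26%). Over these settings the lower members thus numbered 24 to 30 at 1 Hz and 28 to 35 at 4 Hz, and the higher ones 0 to 4 and 0 to 7. The summed level of the 44 members was 3740 to 4400 TPM in the controls, 2660 to 3960 at 1 Hz, 2330 to 3000 at 4 Hz, and 3630 to 4310 at 10 Hz, and the 4 Hz libraries lay below all controls. In TMM-scaled CPM the sum was 4900 to 5640 in the controls and 4860 to 5490 at 10 Hz. It was 4020 to 4870 at 1 Hz and 3680 to 4220 at 4 Hz, both below all controls. In GENCODE M39, 34 members overlap a gene annotated on the other strand, such as Yipf3 for Polr1c and Sharpin for Maf1, and how counting used the strand of reads is not given in the sources used here.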

How the data were processed

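RNA of 24 C2C12 libraries (6 each of control, 1, 4, and 10 Hz, grouped by their labels) was analysed. Estimated counts per gene were deposited by the authors as salmon gave them, not normalized, and 6.15% are not whole (off by more than 0.001). TPM values per gene were deposited by the authors' pipeline, nf-core/rnaseq with the Ensembl annotation of GRCm39. The submitters' processing notes also list BWA 0.7.12-r1039, bedtools 2.25.0, STAR, and Salmon. Those notes name the builds mm10 and hg19 beside GRCm39 without saying what each was used for. All columns were mapped to a sample.

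Counts were rounded, filtered by filterByExpr (minimum count 10, minimum total 15), scaled by TMM, and tested with edgeR 4.0.16 (R 4.3.3) by quasi-likelihood F tests in 1 fit, adjusted over all genes. Poly(A) selection and effective length can shift these values, so alternatives were RLE and upper-quartile factors, no filter or a stricter one (at least 50 counts in at least 6 libraries), fits of only the pair of groups in question, a replicate block, DESeq2 1.42.0, limma 3.58.1 on log2(TPM + 1) and log2(TPM + 0.1) (genes reaching 1 TPM in at least 6 libraries), a length curve removed by loess, and each library left out. After seeing the data, a fit without the 5 libraries with a length slope under -0.1 and TPM shifted to 1 median were added. On simulated libraries of control and 1 Hz, edgeR with TMM and RLE factors, DESeq2, limma on log2 CPM, and the length-curve fit were tested. The other alternatives were not tested on simulated data.

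The members, lists, and tests were chosen with earlier results of these data known. Genes named one by one are, against the control, the 10 called members with the smallest p per direction and 8 fixed by role, between frequencies 3 per direction, and from the other lists 2 per direction. Members outside this rule are named to complete each role and were chosen after their values were seen. Values per library are given for the members with the smallest p, Myc, and Polr3g, and for Polr1a. No 2 libraries were duplicates, with a chi-square per gene of at least 4.83 within a condition. Gene positions are from GENCODE M39, in which 98.9% of gene identifiers were found, and start regions from RefSeq.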

Additional observations from a re-analysis of the deposited data

Results flagged for a closer look

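Each of the 44 members was checked in each condition, or 176 groups of 6 libraries, for a library far from the other 5, and 4 groups had one. Chance alone gives such a library in about 1 of 20 groups. Polr3g had 13.6 CPM in control replicate 3, against 10.6 to 11.6 in the other controls. Myc had 62 CPM in 4 Hz replicate 6, against 91.4 to 113 in the others. Bop1 had 57.9 CPM in 4 Hz replicate 4, against 43.8 to 48.6. Wdr12 had 26 CPM in 4 Hz replicate 6, against 18.2 to 20.6. Without those libraries, the log2(fold change) of Polr3g was -0.72 at 1 Hz, and at 4 Hz those of Myc, Bop1, and Wdr12 were 0.73, -0.74, and -1.12, each still past the threshold.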

How the results depend on the processing

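The counts of lower members kept their direction and stayed within 1.5 times the main count in the alternatives run, apart from the threshold on fold change, which left 16 lower at 1 Hz. The higher members were fewer in several settings. At 1 Hz there were 3 without a filter (5.97% of all genes) and 0 in TPM with either pseudocount (3.58% and 3.54%). There were 2 without the 5 libraries low in long transcripts (15.8%), and 0 past the fold threshold. At 4 Hz there were 0 in TPM with either pseudocount (5.83% and 5.63% of all genes) and 1 past the fold threshold. The median of the members in TPM, at a pseudocount of 1 and 0.1, was -0.51 and -0.56 at 1 Hz and -0.70 and -0.75 at 4 Hz. Between 4 and 1 Hz DESeq2 called 1 member, and the fold threshold left 14 members called between 10 and 1 Hz and 21 between 10 and 4 Hz. For these counts, and for higher members past the fold threshold, the shares of all genes are not given here. Those counts describe the list and are not to be read as particular to it. In TPM (pseudocount 1, then 0.1) some signs turned, for Myc at 1 Hz (-0.01, -0.02), Surf6 at 1 Hz (-0.07, -0.08) and at 4 Hz (-0.18, -0.18), Nufip1 at 4 Hz (-0.13, -0.14), Pop7 at 4 Hz (-0.03, -0.03), and Polr1c between 10 and 1 Hz (0.05, 0.05). The cause was not tested. Leaving out 1 library at a time gave 2 to 6 higher members at 1 Hz, and at 10 Hz ranges of -0.16 to 0.02 for Polr3a, -0.09 to 0.02 for Myc, and -0.01 to 0.09 for Fbl, all uncalled. Replicate numbers did not pair the libraries. The mean correlation of deviations per number lay between -0.037 and 0.00159, 3 of 36 pairs were over 0.1, and 1 of 24 libraries was closest to its own number. With a replicate block, 27 members were lower and 4 higher at 1 Hz (17.7% and 17% of all genes). At 4 Hz, 30 were lower and 6 higher (23.6% and 26.3%). At 6 libraries per condition and a biological coefficient of variation of 14.8%, the standard error of a member's log2(fold change) was mostly near 0.1, and members with small differences, as at 10 Hz, cannot be told from 0.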
